A study of Homo sapiens with 4 samples.

Results

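The 10 genes described here encode transcription factors of kidney development, where SIX2 also acts: PAX2, PAX8, WT1, OSR1, LHX1, MEIS1, MEIS2, MEOX1, NR2F1 and NR2F2. They were chosen by gene name, and each matched 1 of the 58735 genes listed in the count tables. The RNA came from MKN-45, by label, which is an established line from a human gastric cancer, infected with a lentivirus for SIX2 overexpression or with a control lentivirus and kept under puromycin. There were 4 libraries, 2 labelled SIX2 overexpression and 2 control, and the titles number them 1 and 2 within each label, so that each number holds 1 library of each label. The sources used here name neither the lentiviral promoter nor what the numbers stand for. They do not say that replicates were separate cultures, so each p-value reflects the spread among these libraries alone, which may be technical.

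In the embryonic kidney, SIX2 keeps nephron progenitors dividing and undifferentiated until a WNT signal turns some of them into epithelium. OSR1 and WT1 are zinc finger factors of the early kidney mesenchyme, and OSR1 is a partner of SIX2 in mouse progenitors. PAX2 and PAX8 are paired-box factors that specify the nephric lineage with partly redundant roles, and LHX1 is a LIM homeobox factor of the nephric duct and of early epithelial nephrons. MEOX1 is a homeobox gene that marks mouse nephron progenitors, MEIS1 and MEIS2 are TALE homeobox factors with strong MEIS1 expression in kidney stroma, and NR2F1 and NR2F2 are the orphan nuclear receptors COUP-TFI and COUP-TFII.

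Of the 10 members, 3 were at or near the limit of detection. PAX2 and WT1 had 0 counts in every library, and OSR1 had 2 counts in all. The other 7 members were detected, with NR2F1 and NR2F2 highest. None of these 7 passed the test between the SIX2 overexpression label and control, and neither did SIX2 itself. Between the libraries numbered 2 and those numbered 1, MEOX1 and NR2F1 were higher in number 2, and PAX8, MEIS2 and NR2F2 were lower.

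Totals ran between 14792869 and 16777792 counts per library, so that 3 counts, taken as the limit that a count of 0 allows, correspond to 0.179 to 0.19998 CPM in a library. The unit CPM gives counts per 1000000 after library scaling, and RPKM divides CPM by the gene's exon length in kilobases. Keratins of simple epithelium were abundant, with KRT8 between 1704 and 3543 CPM, while the epithelial adhesion gene EPCAM lay between 8.89 and 12.2 CPM, KRT19 had 5 counts in all libraries together and the epithelial splicing factor ESRP1 had 0. Of 12 gastric markers, SOX2 and ATP4A had 0 counts and 6 were tested. Between numbers 1 of them was called higher in number 2 and 2 lower, beside 43.8% of all tested genes called in either direction. GATA4 was at 20.9 and 23.0 CPM in number 2 against 0.545 and 0.733 CPM in number 1, and set the direction of the list's sum, 38.3 and 48.6 CPM in number 2 against 32.6 and 30.7 CPM in number 1, while TFF1 and GATA6 had log2 changes of -2.46 and -0.93. Mitochondrial genes held 6.58% and 6.29% of counts in number 2 against 7.03% and 6.19% in number 1, SIX2-labelled library and control in each. Whether the cells are this line was not tested, and the label is used as given.

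SIX2 had 605 and 379 counts in the libraries labelled SIX2 overexpression numbered 2 and 1, against 597 and 369 in the controls numbered 2 and 1. Its ratio of SIX2-labelled library over control was 1.07 in number 2 and 0.933 in number 1. The label was thus not borne out by the counts of the human SIX2 gene, and directions below are between labels, not between measured SIX2 levels. Whether RNA from the lentiviral construct would be counted under this gene was not tested.

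Promoter sequence is shown for a pair of close paralogs that moved in opposite directions between numbers, NR2F1 and NR2F2, and for PAX2, which had no counts. The windows cover 250 bases before to 50 after a start, from RefSeq on GRCh38.p14, and 7 of the 10 members had at least 1 window, 14 in all. The window printed for NR2F1 spans the listed start of the gene, 93583224. Those printed for NR2F2 and PAX2 lie inside their genes, past the listed starts of 96325938 and 100735603. They were searched on both strands for AGGTCA, the core of nuclear receptor sites, for TGACAG, a core bound by MEIS proteins, and for TCAGGTTTC, the SIX-bound MEF3 sequence. Capitals mark TGACAG, the 1 motif of these found in the windows printed here.
NR2F1, first window, chr5:93582972-93583271, plus strand: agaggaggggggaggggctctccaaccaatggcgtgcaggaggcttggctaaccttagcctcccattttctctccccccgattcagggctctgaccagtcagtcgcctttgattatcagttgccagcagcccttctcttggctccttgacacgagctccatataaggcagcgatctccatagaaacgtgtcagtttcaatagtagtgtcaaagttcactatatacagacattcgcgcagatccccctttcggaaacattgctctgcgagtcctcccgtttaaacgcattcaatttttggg
NR2F2, second window, chr15:96333515-96333814, plus strand: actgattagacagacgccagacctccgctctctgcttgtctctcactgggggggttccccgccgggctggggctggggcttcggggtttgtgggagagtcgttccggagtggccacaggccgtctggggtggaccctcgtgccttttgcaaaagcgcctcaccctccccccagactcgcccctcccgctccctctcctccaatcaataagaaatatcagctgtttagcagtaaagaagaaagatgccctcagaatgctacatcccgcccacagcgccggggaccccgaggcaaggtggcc
PAX2, second window, chr10:100745332-100745631, plus strand: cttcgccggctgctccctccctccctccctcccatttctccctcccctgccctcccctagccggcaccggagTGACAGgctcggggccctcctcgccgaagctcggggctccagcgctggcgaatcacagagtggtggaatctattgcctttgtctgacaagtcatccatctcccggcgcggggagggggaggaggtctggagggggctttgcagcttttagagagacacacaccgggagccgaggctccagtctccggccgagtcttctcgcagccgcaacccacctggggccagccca

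The NR2F1 window had 51.3% G and C and 12 CpG, the NR2F2 window 62% and 16, and the PAX2 window 66.7% and 19, against medians of 58.7% and 14 over all 35116 windows. TGACAG stood in 3 of the 14 member windows, both of PAX2 and 1 of WT1, and in 15.8% of all windows. AGGTCA stood in 1 member window, of WT1, where it overlaps a TGACAG match, and in 13.8% of all windows. TCAGGTTTC stood in 0 member windows and in 0.362% of all windows.

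**Figure D1:**
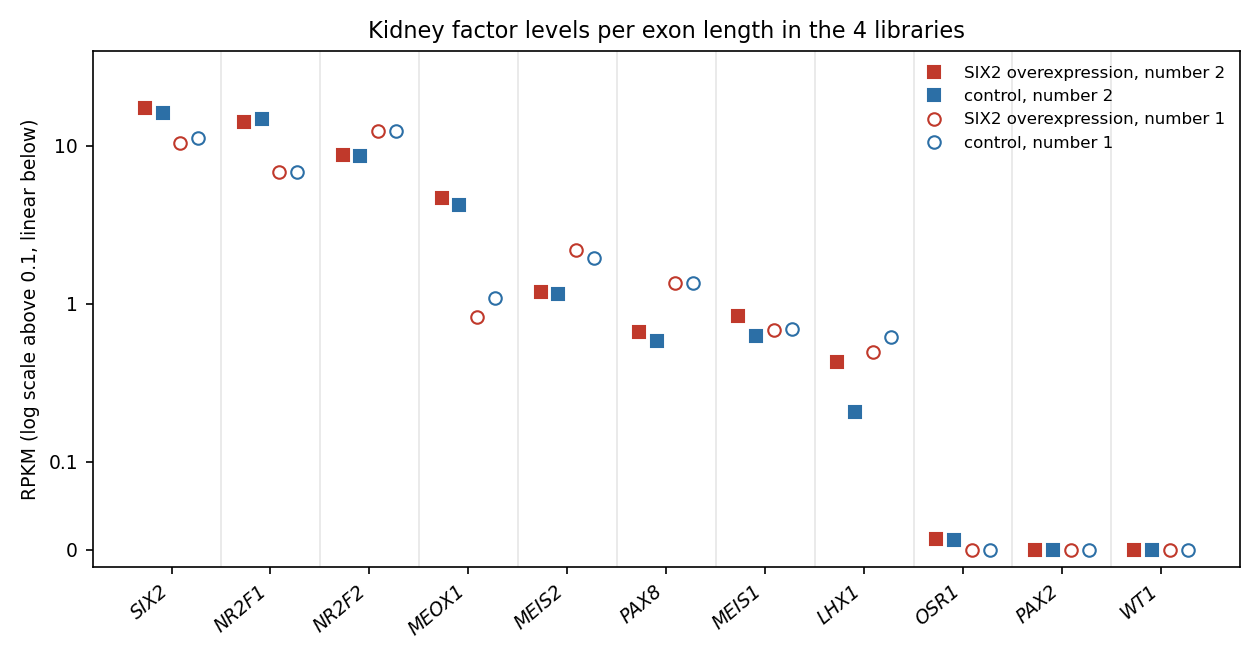
RPKM of the 10 kidney factors and SIX2 in each library, on a log axis above 0.1 and a linear one below; squares are number 2, circles number 1, red the SIX2 overexpression label and blue control. Within a number the labels lie close together, LHX1 in number 2 apart, while MEOX1, NR2F1, NR2F2, MEIS2 and PAX8 form separate pairs by number, and OSR1, PAX2 and WT1 lie at or near 0.

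Across the 4 libraries the members kept a wide range of levels per exon length. NR2F1 averaged 10.7 RPKM and NR2F2 10.5 RPKM, against 13.8 RPKM for SIX2, at the 73.6th, 73.2nd and 79.1st percentiles of 16256 detected protein-coding genes. MEOX1 averaged 2.70 RPKM, MEIS2 1.63, PAX8 0.990, MEIS1 0.708 and LHX1 0.437 RPKM. Most neighbours in this order overlapped over the 4 libraries: NR2F1 ranged from 6.86 to 14.7 RPKM and NR2F2 from 8.66 to 12.4, MEOX1 from 0.828 to 4.65 and MEIS2 from 1.16 to 2.21, and PAX8, which also overlapped MEIS2, from 0.581 to 1.36 and MEIS1 from 0.622 to 0.833. MEIS1 and LHX1 did not overlap, LHX1 reaching 0.614 RPKM at most, and neither did NR2F2 and MEOX1.

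PAX2, WT1 and OSR1 were at or near the limit of detection. PAX2 (ENSG00000075891, chromosome 10, 100735603 to 100829941, plus strand, GRCh38) and WT1 (ENSG00000184937, chromosome 11, 32387775 to 32435630, minus strand) had 0 of 64076998 counts, which allows up to 0.0468 CPM over the 4 libraries together. The antisense RNA WT1-AS, which starts 112 bases from WT1, also had 0 counts. OSR1 (ENSG00000143867, chromosome 2, 19351485 to 19358653, minus strand) had 1 count in each library numbered 2 and 0 in each numbered 1. These 3 genes did not pass the filter on low counts and were not tested.

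PAX8 and LHX1, which act as the lineage turns epithelial, were present at low levels. PAX8 (ENSG00000125618, chromosome 2, 113215997 to 113278950, minus strand) was at 10.1 and 4.94 CPM in SIX2-labelled replicates 1 and 2, and at 10.00 and 4.30 CPM in control replicates 1 and 2. The groups overlapped, and the log2 change between labels was 0.07 (SE 0.61, adjusted p = 1.00). Here and below, adjusted p are from the quasi-likelihood test of edgeR, corrected over all tested genes by Benjamini and Hochberg's method. LHX1 (ENSG00000273706, chromosome 17, 36936785 to 36944612, plus strand) was at 2.42 and 2.09 CPM in SIX2-labelled replicates 1 and 2, and at 2.9997 and 1.01 CPM in control replicates 1 and 2. The control numbered 2 was the lowest library for LHX1, with 17 counts, and the log2 change between labels was 0.17 (SE 0.66, adjusted p = 1.00).

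Among the homeobox factors, MEOX1 (ENSG00000005102, chromosome 17, 43640388 to 43661954, minus strand) was at 2.24 and 12.6 CPM in SIX2-labelled replicates 1 and 2, and at 2.93 and 11.5 CPM in control replicates 1 and 2. Both libraries numbered 2 were high and both numbered 1 low, whichever the label. MEIS1 (ENSG00000143995, chromosome 2, 66433452 to 66573869, plus strand) was at 7.51 and 9.11 CPM in SIX2-labelled replicates 1 and 2, and at 7.53 and 6.80 CPM in control replicates 1 and 2. MEIS2 (ENSG00000134138, chromosome 15, 36889204 to 37101299, minus strand) was at 23.8 and 12.8 CPM in SIX2-labelled replicates 1 and 2, and at 21.1 and 12.5 CPM in control replicates 1 and 2. MEIS1 thus stayed between 6.80 and 9.11 CPM, while its paralog MEIS2 was low in both libraries numbered 2. Between labels the log2 changes were 0.04 (SE 1.05) for MEOX1, 0.21 (SE 0.34) for MEIS1 and 0.12 (SE 0.46) for MEIS2, each with adjusted p = 1.00.

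The nuclear receptors gave the most counts. NR2F1 (ENSG00000175745, chromosome 5, 93583224 to 93594615, plus strand) was at 29.6 and 61.3 CPM in SIX2-labelled replicates 1 and 2, and at 29.6 and 63.4 CPM in control replicates 1 and 2. NR2F2 (ENSG00000185551, chromosome 15, 96325938 to 96340263, plus strand) was at 80.3 and 56.2 CPM in SIX2-labelled replicates 1 and 2, and at 79.7 and 55.9 CPM in control replicates 1 and 2. Within each number the labels were almost level for both genes. Between labels the log2 changes were -0.03 (SE 0.53) for NR2F1 and 0.01 (SE 0.30) for NR2F2, with adjusted p = 1.00 for each.

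In the SIX2 overexpression label set against control, 0 of the 7 tested members passed the threshold of 0.05, as did 0% of the 16343 tested genes by edgeR. At an unadjusted p under 0.05 there were 0 members and 12 genes, DESeq2 called 0 members and 0 genes with 7 genes under 0.05, and limma-voom called 0 and 0 with 10. The labels overlapped for each of the 7 members, while 11.8% of all tested genes had labels that did not overlap. The median log2 change was 0.07 over the tested members and -0.00 over all genes. All of these fits, by edgeR, DESeq2 and limma-voom, left the number out, so the difference between numbers is part of the error in each. The edgeR SEs for the members reach 1.05, and a p above the threshold does not show equal levels. With the number as a term, the members' edgeR SEs ran from 0.14 for NR2F2 to 0.42 for LHX1, and no member passed.

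**Figure D2:**
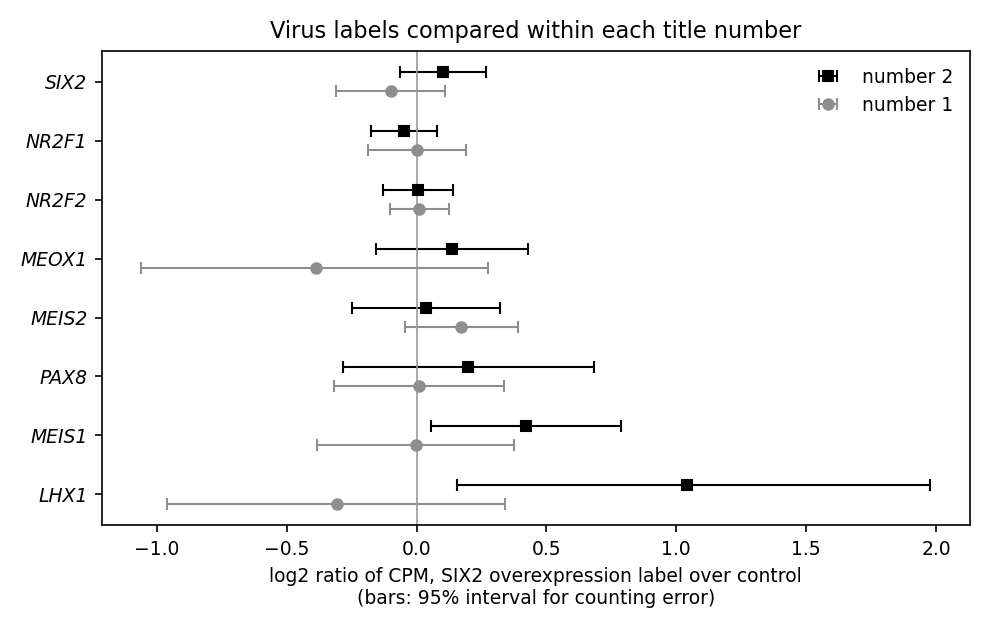
Log2 ratio of CPM in the SIX2-labelled library over the control with the same number, for SIX2 and the 7 tested members; squares are number 2, circles number 1, and bars are 95% intervals for counting error. NR2F1 and NR2F2 lie near 0 with narrow bars in both numbers, and only the bars of MEIS1 and LHX1 in number 2 lie clear of 0.

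Within a number there is 1 library per label and no replicate check, so the ratios that follow carry exact binomial intervals at 95% that cover counting error only. NR2F2 had a ratio of SIX2-labelled library over control of 1.00 (0.916 to 1.10) in number 2 and 1.01 (0.931 to 1.09) in number 1. For NR2F1 the ratio was 0.967 (0.886 to 1.06) in number 2, while number 1 gave 1.00 (0.878 to 1.14). For these genes the libraries were deep enough to bound the ratio within those limits. The less abundant members were less well bounded: PAX8 had a ratio of 1.15 (0.823 to 1.60) in number 2 with 1.01 (0.802 to 1.26) in number 1, and MEOX1 1.10 (0.897 to 1.35) in number 2 but 0.764 (0.480 to 1.21) in number 1.

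MEIS2 had a ratio of 1.02 (0.841 to 1.25) in number 2 and 1.13 (0.969 to 1.31) in number 1. MEIS1 had 1.34 (1.04 to 1.73) in number 2, where it had 144 counts against 114, and 0.997 (0.767 to 1.30) in number 1. LHX1 had 2.06 (1.11 to 3.94) in number 2, from 33 counts against 17, and 0.808 (0.514 to 1.27) in number 1. The intervals of MEIS1 and LHX1 in number 2 lay above 1 and those in number 1 spanned it. These intervals are not adjusted for the number of ratios looked at. The share of all tested genes with an interval clear of 1 was not computed, so neither gene is read as standing out. Whether the label acts differently in the numbers was not tested.

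Between the libraries numbered 2 and those numbered 1, 5 of the 7 tested members passed the threshold, 2 higher and 3 lower, where 43.8% of all tested genes passed, 22.2% higher and 21.6% lower. Among the 1093 tested genes that the tables assign to a transcription factor family, 46.2% passed. The numbers did not overlap for 6 of the 7 members, and for 72.2% of all tested genes. With this many genes past the threshold, the sizes of the members' changes are described below and nothing is read from their number. The 2 libraries of a number carry different labels, so the error in this fit is the difference between labels within each number. The p-values for numbers therefore do not measure how levels would vary among further numbers. The median absolute log2 change was 0.82 over the 7 members and 0.42 over all tested genes.

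**Figure D3:**
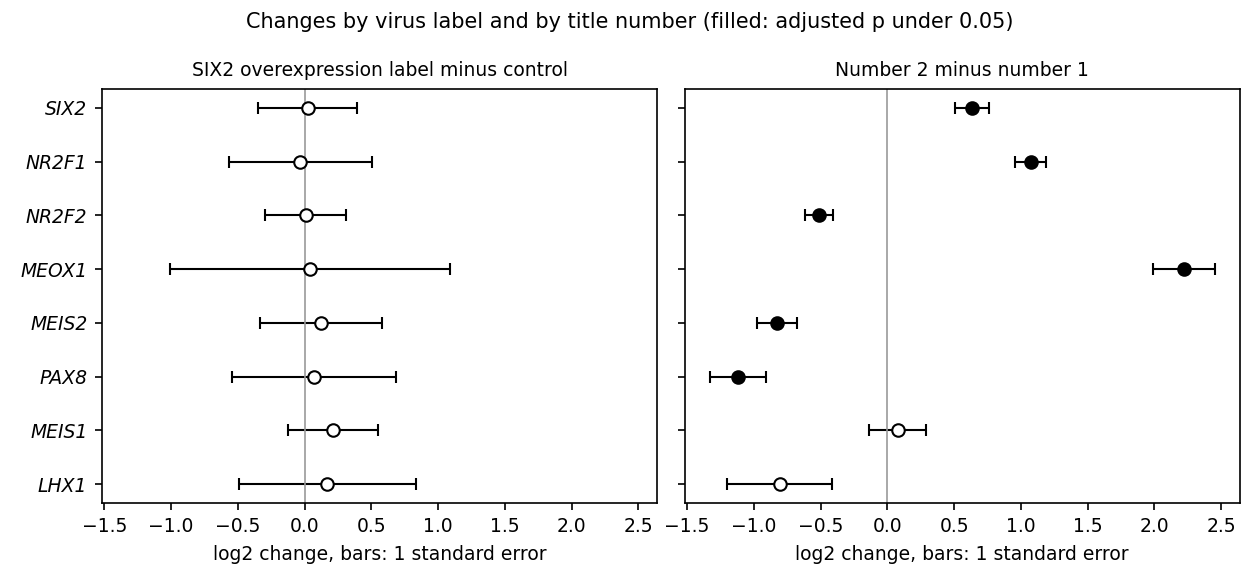
Log2 change with 1 SE for SIX2 and the 7 tested members, between labels on the left and between numbers on the right; filled points have an adjusted p under 0.05. All points on the left lie within 1 SE of 0, and on the right MEOX1, NR2F1 and SIX2 lie above 0 and PAX8, MEIS2 and NR2F2 below it.

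MEOX1, the progenitor marker, had the largest change of the tested members, at 12.03 ± 0.800 CPM in the libraries numbered 2 and 2.59 ± 0.489 CPM in those numbered 1 (SD, n = 2 each), 4.65-fold higher in number 2 (log2 change 2.22, SE 0.23, adjusted p = 7.13e-06). NR2F1 was at 62.4 ± 1.47 CPM in the libraries numbered 2 and 29.6 ± 0.0203 CPM in those numbered 1, 2.11-fold higher (log2 change 1.07, SE 0.11, adjusted p = 8.29e-06). SIX2 moved the same way, at 37.0 ± 1.87 CPM in the libraries numbered 2 and 23.8 ± 1.16 CPM in those numbered 1, a smaller log2 change of 0.64 (SE 0.13, adjusted p = 0.00119). Number 2 over number 1, MEOX1 was 5.62-fold in the SIX2-labelled libraries and 3.91-fold in the controls, and NR2F1 2.07-fold and 2.14-fold. An SD of 2 libraries can by coincidence lie below counting error, as for NR2F1 in number 1, with 489 and 444 counts. Such small SDs, among them those of PAX8 and MEIS1 in number 1 below, do not measure precision.

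PAX8 was at 4.62 ± 0.451 CPM in the libraries numbered 2 and 10.0 ± 0.0410 CPM in those numbered 1 (SD, n = 2 each), and fell by 1.12 in log2 terms (SE 0.21, adjusted p = 0.000790). MEIS2 was at 12.7 ± 0.220 CPM in the libraries numbered 2 and 22.5 ± 1.89 CPM in those numbered 1, and fell by 0.82 (SE 0.15, adjusted p = 0.000651). NR2F2 was at 56.1 ± 0.185 CPM in the libraries numbered 2 and 80.0 ± 0.435 CPM in those numbered 1, and fell by 0.51 (SE 0.11, adjusted p = 0.00167). Each of these 3 was lower in number 2 under both labels.

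LHX1 was at 1.55 ± 0.759 CPM in the libraries numbered 2 and 2.71 ± 0.408 CPM in those numbered 1, a log2 change of -0.81 that did not pass (SE 0.39, adjusted p = 0.116). The value depended on which library numbered 2 was left out: without SIX2-labelled replicate 2 the change was -1.41 and passed (adjusted p = 0.00789), and leaving out control replicate 2 gave -0.36 (adjusted p = 0.479). MEIS1 was at 7.96 ± 1.63 CPM in the libraries numbered 2 and 7.52 ± 0.0142 CPM in those numbered 1, a log2 change of 0.08 (SE 0.21, adjusted p = 0.794).

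NR2F1 and NR2F2 changed places between numbers. The level of NR2F1 per exon length was 1.63 and 1.70 times that of NR2F2 in the SIX2-labelled library and the control of number 2, against 0.553 and 0.556 times in number 1. MEIS1 stood at 0.701 and 0.536 times the RPKM of MEIS2 in the SIX2-labelled library and the control of number 2, and at 0.312 and 0.352 times in number 1. MEOX1 stood at 0.268 and 0.262 times the RPKM of SIX2 in number 2 and at 0.0795 and 0.0971 times in number 1. In each of these ratios the numbers did not overlap, which restates the changes of the single genes given above and adds no support to them.

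Several members share ground with genes on the opposite strand, and the sources used here do not give the strand setting of the counting, so reads in shared bases cannot be told apart. PAX8-AS1 shares 685 of the 7400 exon bases of PAX8 and was more abundant, at 31.7 and 14.2 CPM in SIX2-labelled replicates 1 and 2 and 28.1 and 12.7 CPM in control replicates 1 and 2. It was lower in number 2 with a log2 change of -1.16 (SE 0.15, adjusted p = 3.52e-05), close to that of PAX8. NR2F1-AS1 shares 158 of the 4314 exon bases of NR2F1 and was at 5.76 and 6.33 CPM in SIX2-labelled replicates 1 and 2 and 5.07 and 5.25 CPM in control replicates 1 and 2. Its log2 change between numbers was 0.09, where that of NR2F1 was 1.07 (SE of NR2F1-AS1 0.23, adjusted p = 0.774). NR2F2-AS1 shares 0 exon bases with NR2F2, had 4 to 20 counts per library and a log2 change of -0.79 (SE 0.64, adjusted p = 0.348). MEIS1, MEIS2 and LHX1 had antisense genes with at most 1 count in any library, LHX1-DT, which starts 124 bases from LHX1, had 5 to 12 counts, and PAX2, OSR1 and MEOX1 had no opposite-strand gene that overlaps them or starts within 5000 bases.

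The 3 genes whose pattern over the 4 libraries lay closest to NR2F2, the member with the most counts, were NARS, RSRC2 and MTG2. Their centred log2 CPM lay 0.00868, 0.0113 and 0.0131 from it, as a Euclidean distance over 4 libraries among 12954 other tested protein-coding genes. NARS, for example, was at 143 and 144 CPM in number 2 against 205 and 204 CPM in number 1, in the SIX2-labelled library and the control of each. Of those genes 943 lay within 0.2, so a close pattern was common with 4 libraries that split by number.

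Many other genes of the progenitor programme had no counts or too few to test. Of 22 progenitor partners and signals, 10 had 0 counts, among them the SIX2 cofactor EYA1, the zinc finger gene SALL1 and the ligand gene GDNF, and 6 could be tested. Between labels 0 of the 6 passed, with a median log2 change of -0.05. Between numbers 1 was higher and 3 were lower in number 2, with a median of -0.51 over the 6 against 0.01 over all genes, of which 43.8% were called. The forkhead gene FOXC2, needed in early kidney mesenchyme, was at 15.5 ± 1.10 CPM in the libraries numbered 2 and 43.8 ± 7.22 CPM in those numbered 1 (adjusted p = 4.46e-06). The patterning genes HOXC11 and HOXA11 were lower in number 2 by log2 changes of -1.24 (SE 0.13) and -0.97 (SE 0.14). Each SD here is from n = 2 libraries per number, while each SE also draws on the spread of the other tested genes.

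Of 22 genes of nephron differentiation, 8 had 0 counts and 10 could be tested, and between labels 0 of them passed. Between numbers 5 were lower and 0 higher in number 2, with a median log2 change of -0.73, beside 43.8% called over all tested genes. Without control replicate 2 the count was 8, and 8416 genes were called in all. IRX3, a homeobox gene of the tubule, was at 9.17 ± 0.987 CPM in the libraries numbered 2 and 59.9 ± 1.84 CPM in those numbered 1 (SD, n = 2 each), 6.53-fold lower in number 2 (adjusted p = 9.22e-09). The Notch ligand gene JAG1 and the cell cycle gene CCND1 were lower in number 2 too, with log2 changes of -1.17 and -0.69 and SEs of 0.16 and 0.11. The nephron inducer WNT4 had 3 to 9 counts per library and was not tested.

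Of 27 paralogs and cofactors of the members, 7 had 0 counts and 16 could be tested, and between labels 0 of them passed. Between numbers 3 were higher and 4 lower in number 2, with a median log2 change of 0.06, the same share as the 43.8% over all tested genes. The MEIS paralog MEIS3 was at 24.6 ± 3.14 CPM in the libraries numbered 2 and 9.06 ± 1.498 CPM in those numbered 1 (adjusted p = 2.37e-05), so that of the MEIS genes MEIS3 was higher, MEIS2 lower and MEIS1 not called. PBX3 and PKNOX1, TALE homeobox genes like MEIS, were higher in number 2 by log2 changes of 1.74 and 0.64 with SEs of 0.20 and 0.14, and PBX4 had a log2 change of -1.55 (SE 0.20). PAX6, the eye and pancreas PAX gene, had a log2 change of -1.79 (SE 0.18), LHX6 of -1.66 (SE 0.23) and NR2F6, a relative of NR2F1 and NR2F2, of -0.51 (SE 0.11).

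Markers of other cell types also differed between numbers, where 43.8% of all tested genes were called. Of the 8 epithelial markers, 6 were tested. KRT8 and KRT18 were called higher in number 2, with log2 changes of 0.87 and 0.79. The adhesion gene CDH1 and the tight junction gene CLDN4 were called lower, with -1.67 and -0.75. The 6 renal stroma markers summed to 37.1 and 38.8 CPM in number 2 against 18.2 and 20.0 CPM in number 1 (SIX2-labelled library and control in each), with TBX18 at 0 counts and TCF21 at 1 in all. Of the 3 tested, MEIS3 and PDGFRB, which also stand in other lists used here, were called higher. The stroma marker FOXD1 had a log2 change of -0.31 that did not pass (adjusted p = 0.323). The 10 fibroblast markers summed to 282 and 291 CPM in number 2 against 138 and 124 CPM in number 1, with PDGFRA at 0. The median log2 change over the 6 tested was -0.09, so the sum does not show a rise across the list. Among those tested, 2 were called higher, COL1A1 and PDGFRB, and 2 lower, LUM and DCN. The 6 mesothelial markers summed to 466 and 398 CPM in number 2 against 243 and 271 CPM in number 1, nearly all of it MSLN and UPK3B, with ITLN1 at 0. The 7 endothelial markers summed to 8.67 to 13.6 CPM over the libraries, with KDR at 0. The 8 markers of neural cells and of HEK293, a virus packaging line, summed to 22.2 and 23.0 CPM in number 2 against 34.1 and 27.9 CPM in number 1, nearly all of it INA, with NEFM, STMN2, ELAVL4 and GAP43 at 0. Their part in the members' differences was not tested, and a share of cells and the RNA per cell cannot be told apart in bulk libraries.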

How the data were processed

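RNA of 4 libraries was measured by sequencing. Each deposited table holds 1 library as raw counts by Ensembl identifier, per the file headers, without normalization. The sources used here do not give the authors' aligner, counter or strand setting. The submitters' processing notes name the build mm9, but all 58735 gene identifiers are in GENCODE release 29 (GRCh38), where the 10 members have the same coordinates. Genes were filtered with filterByExpr (16343 left), scaled by TMM and tested with edgeR 4.0.16 in R 4.3.3 by quasi-likelihood, with label or number as the only term and Benjamini-Hochberg adjustment over all tested genes at a threshold of 0.05. RPKM use the exon length in the tables, and SEs come from the F statistic, whose variance estimate is shared in part across all tested genes. Alternatives were RLE and upper-quartile factors, DESeq2 1.42.0, limma-voom (limma 3.58.1), no filter, each library left out, and the other factor as a term. The fits were tested on simulated counts, which for the label comparison held no difference between numbers. That test therefore does not show which label changes could be found in these libraries. Counting precision is set by 14792869 to 16777792 counts per library, while the SEs of the fits also depend on the spread between libraries. Intervals at 95% cover counting error only. Named were the members, SIX2, opposite-strand neighbours, up to 4 called genes per direction of each pathway list, and the 3 genes nearest in pattern. Members, lists and the comparison of numbers were chosen with earlier results of these data known, and genes named for having few or no counts and the markers named were chosen after their values were seen. Some genes that this rule names are not reported here.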

Additional observations from a re-analysis of the deposited data

How the results depend on the processing

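Between numbers, 5 members passed the threshold under each alternative that kept all 4 libraries. The members tested were 7, or 8 with DESeq2 and with no filter on low counts. Without SIX2-labelled replicate 2 the log2 change of LHX1 was -1.41, against -0.81 in the main fit. The members' directions held, except that MEIS1, never called, had a log2 change of -0.14 without SIX2-labelled replicate 2 (range -0.14 to 0.29 with each library left out). The adjusted p of LHX1 ran from 0.00789 to 0.479. The number of all genes called was between 5657 (DESeq2) and 7510 (no filter on low counts), and between 4853 and 8416 with each library left out. The count of nephron differentiation genes called ran from 5 to 8 with each library left out. Leaving out a library leaves 1 sample in an arm, which is then assumed to vary like the other arm.

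Between the SIX2 overexpression label and control no member passed under any alternative. With each library left out, which leaves the numbers unbalanced between labels, the log2 change of MEIS1 stayed above 0, at 0.07 to 0.34, and those of SIX2 and the other 6 members turned sign. They ran from -0.39 to 0.34 for SIX2, -0.54 to 0.81 for PAX8, -0.40 to 1.15 for LHX1, -0.39 to 0.55 for MEIS2, -1.68 to 1.35 for MEOX1, -0.65 to 0.63 for NR2F1 and -0.28 to 0.29 for NR2F2. With limma-voom the changes of SIX2 and MEOX1 were -0.0060 and -0.16.

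The title numbers form only 2 pairs and share only a number. Deviations from the group means of same-numbered libraries correlated at 0.872. With the number as a replicate block, 8 genes were called between labels against 0 without it, 6 higher and 2 lower, none of them a member, and MEOX1 had a log2 change of -0.051.

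With 17 to 45 counts of LHX1 per library and at most 1 of OSR1, depth limits what can be said of these genes.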
